A study of Homo sapiens with 2 samples.

Results

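The genes described are 51 chromatin regulator genes, chosen by name from GENCODE release 44: histone and DNA modifiers, bromodomain proteins, nucleosome remodellers and cohesin subunits. They are 51 of 20033 protein-coding genes on chromosomes 1 to 22, X and Y, and the rule for them used no measured value, although they were proposed with earlier results of these data known. NUDT21 CUT&Tag peaks were examined within 3000 bp of every annotated transcript start of these genes (here called promoter peaks) and over their gene bodies. Both samples were biological replicates of J.gamma1, labelled as cells of T-cell acute lymphoblastic leukemia, or T-ALL, and both were profiled with the same NUDT21 antibody. J.gamma1 is an established derivative of the Jurkat line that lacks the phospholipase PLCG1. The 2 replicates made up 1 group, no control sample was analysed here, and all values therefore describe 1 cell line with no comparison between conditions and no test. The study asked, among other things, where NUDT21 sits on chromatin in T-ALL cells.

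NUDT21 belongs to cleavage factor I, a complex that binds UGUA in nascent RNA and helps to choose the polyadenylation site of a transcript. In CUT&Tag the antibody draws a transposase to its target, and the DNA cut there is sequenced, so a peak marks DNA near the protein and does not measure expression. Chromatin regulators add, remove or read chemical marks on histones and DNA, move nucleosomes, or hold DNA loops together. Many of them, among them KMT2D, EZH2, DNMT3A, TET2, CREBBP and CTCF, are recurrently mutated in blood cancers.

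Replicate 1 had more peaks and more fragments at them. It had 92722 peaks on the main chromosomes with a median of 30 fragments at the summit, and replicate 2 had 66671 peaks with a median of 20 fragments. Fragments were solved from each peak's fold and −log10 p, as deposited, together with the background against which the peak was called, here named the control level. The replicate 1 pileups were scaled, which happens when a library is set against a control library of another depth, but the methods describe none, so whether an IgG or input library stands behind the control level is unknown. Folds of the replicates are not on 1 scale, so each was also given as a list percentile, the percent of peaks of the same list with a lower fold. The presence of promoter peaks did not separate markers of the labelled cell type from B-cell or myeloid markers. Both replicates had one at 8 of 10 T-cell, 4 of 5 B-cell, 4 of 5 myeloid and 2 of 5 epithelial genes, beside 57% of all protein-coding genes. Where both had one, the strongest promoter fold ranked in the order T-cell, B-cell, myeloid, epithelial. The median of the mean list percentile was 87.4, 73.8, 60.4 and 53.7, over 8, 4, 4 and 2 genes.

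Nearly all chromatin regulator genes carried NUDT21 peaks at a promoter. A promoter peak was called at 50 of 51 genes in replicate 1 and at 46 of 51 in replicate 2, and the 46 genes had one in both replicates (90.2%). The share over all protein-coding genes was 57%. Since peaks are frequent at GC-rich starts, the genes were also set beside other protein-coding genes of like promoter GC content, in 20 classes of equal size by the bases 500 bp either side of the gene start. Such genes had promoter peaks in both replicates in 66.9% of cases, 23.3 percentage points below the chromatin regulators. In replicate 1 alone the difference was 17.6 points and in replicate 2 alone it was 22.6 points, with an SD of 3.56 (n = 2). This SD describes 2 peak lists over the same genes and does not measure the spread over genes. When GC content was taken at the canonical transcript start, a choice made after seeing the data, the difference was 18.8 points. The genes had many annotated starts (a median of 16), and beside genes of like GC content and promoter window width the difference was 22.1 points. When only the 10000 peaks of highest −log10 p were taken from each replicate, 28 of the 51 genes had a promoter peak in both, against 24.6% of all protein-coding genes, and the difference from genes of like promoter GC content was 24.2 points. No control sample was analysed here, so NUDT21 at these promoters and cutting of open DNA by the transposase cannot be told apart. The choice of the canonical start was made because of ARID1B, a BAF subunit. Its GC content was 31.0% at the annotated gene start and 68.4% at the canonical start. The strongest replicate 1 peak of ARID1B lay 245888 bp from the gene start and was also far from the canonical start.

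Relatives of these genes were counted for comparison. Of 50 further chromatin genes, such as KDM2A and KAT6A, 38 had a promoter peak in both replicates (76.0%), against 63.5% of genes of like promoter GC content. Of 20 relatives known from germ line, muscle or brain, 8 had one (40%), against 57.8%. With GC content at the canonical start, the genes of like GC content had 67.6% and 59.3%. The order of the shares was therefore chromatin regulators, further chromatin genes, tissue-restricted relatives. The median number of annotated starts had the same order (16, 13 and 5.5), as did the median promoter window (29514, 24773 and 13213.5 bp). The 2 lists of relatives were not set beside genes of like window, so the part of window width in the order was not tested. In the tissue-restricted list, no promoter peak was called in either replicate at BRDT, PRDM9, SMYD1, HDAC9, PRMT8, MORC1 and ASXL3. ASXL3 is the relative of ASXL1 and ASXL2, which both had promoter peaks in both replicates.

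**Figure D1:**
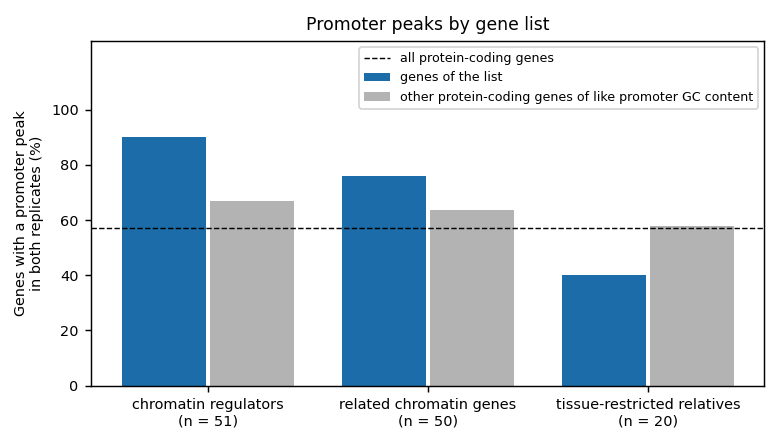
Percent of genes carrying a NUDT21 promoter peak in each of both replicates (y axis) for 3 gene lists (x axis). Blue bars are the genes of the list, grey bars other protein-coding genes of like promoter GC content, and the dashed line all protein-coding genes (57%). Blue lies above grey for the chromatin regulators (90.2 and 66.9%) and the related chromatin genes (76.0 and 63.5%), and below it for the tissue-restricted relatives (40 and 57.8%).

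The peaks at these promoters also ranked high within their lists. For the 46 genes so called in both lists, the strongest promoter fold had a median of 9.15 in replicate 1 and 6.51 in replicate 2. The corresponding median list percentiles were 96.7 and 88.6. For genes of like promoter GC content that also had peaks in both replicates, the class medians averaged 89.3 and 79.5, lower by 7.39 and 9.03 points. A median over the 46 genes is there set against an average of class medians, so the size of the difference is uncertain. Of the 46 genes, 21 (45.7%) reached percentile 90 in both replicates, against 29.8% of the other protein-coding genes with peaks in both. Percentile 99 was reached in both by 7 genes, ARID1A, SMARCA4, CHD3, KDM6B, HDAC1, DOT1L and SETD1A (15.2%, against 4.96%). These shares take the maximum over all promoter peaks of a gene, and the other genes were not matched for number of peaks or starts. The median number of promoter peaks was 4 in each replicate over the 51 genes and 1 over all protein-coding genes. At the canonical start, SMARCA4 stood at percentiles 99.7 and 89.8 and DOT1L at 98.7 in both. At the other end, SMC3 and EED were under percentile 50 in both replicates (4.35%, against 11.7%).

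**Figure D2:**
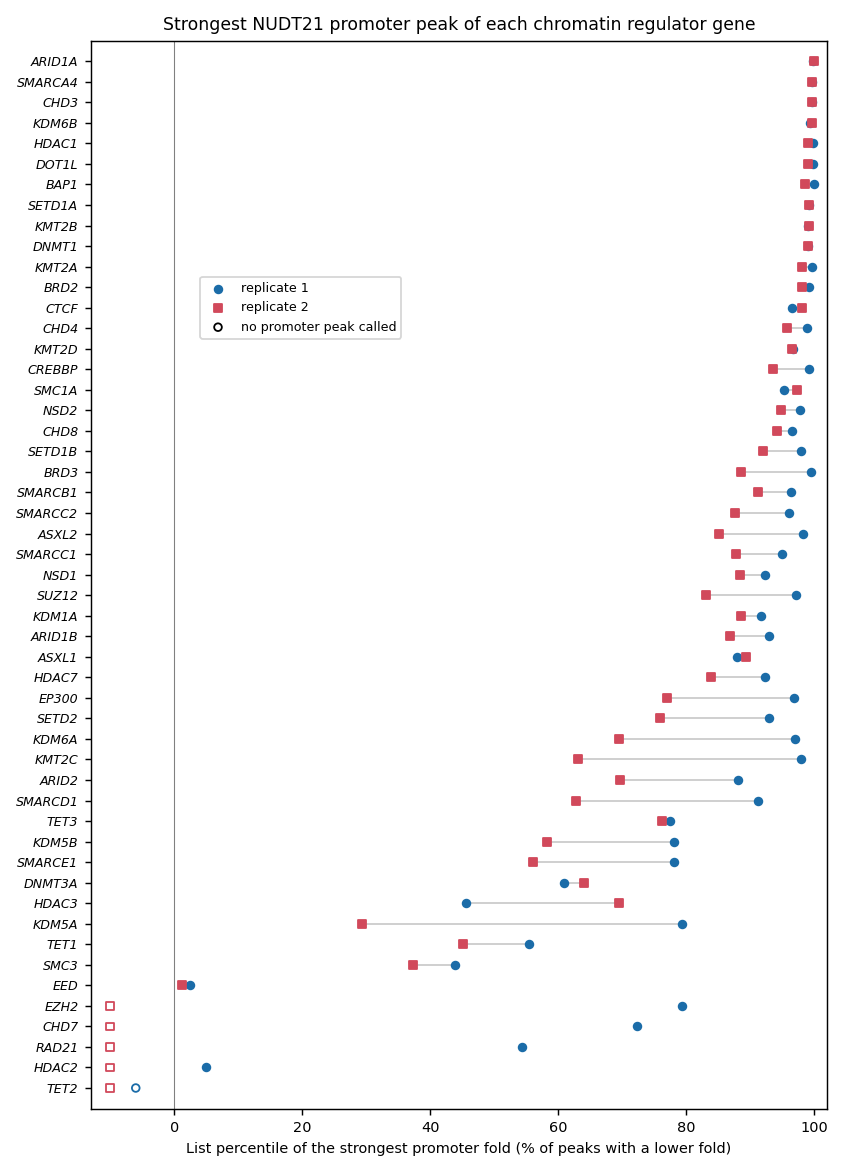
List percentile of the strongest promoter fold (x axis, percent of peaks of the same list with a lower fold) for each of the 51 genes (rows, ordered by the mean of the replicates). Circles are replicate 1, squares replicate 2, and open symbols left of 0 mark genes with no promoter peak called. Most genes lie above percentile 80, EED lies near 0 in both replicates, and the 5 lowest rows lack a peak in replicate 2.

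The DNA at the highest and lowest summits is shown because these genes mark the ends of the range. Each window holds 100 bases of the plus strand of hg38 around the summit of the strongest replicate 1 promoter peak. Capitals mark matches on either strand to 7 motifs that were searched, namely TGTA (the DNA form of the NUDT21 recognition motif), the SP-type box GGGCGG, the ETS-type motif CCGGAAG, the CCAAT box, the E-box CACGTG, the YY1-type motif ATGGCGG and the NRF1-type core GCATGCGC. The 5 highest genes by mean percentile were ARID1A at chr1:26692909-26693008, SMARCA4 at chr19:10960890-10960989, CHD3 at chr17:7887773-7887872, KDM6B at chr17:7835421-7835520 and HDAC1 at chr1:32291914-32292013.
ARID1A: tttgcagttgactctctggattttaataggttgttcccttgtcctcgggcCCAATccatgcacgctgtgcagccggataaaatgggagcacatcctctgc
SMARCA4: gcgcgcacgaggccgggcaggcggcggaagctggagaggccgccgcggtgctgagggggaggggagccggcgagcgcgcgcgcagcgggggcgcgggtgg
CHD3: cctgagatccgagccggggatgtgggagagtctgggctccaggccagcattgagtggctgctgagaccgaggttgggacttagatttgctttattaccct
KDM6B: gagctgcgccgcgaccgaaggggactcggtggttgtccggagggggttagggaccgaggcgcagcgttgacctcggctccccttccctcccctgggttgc
HDAC1: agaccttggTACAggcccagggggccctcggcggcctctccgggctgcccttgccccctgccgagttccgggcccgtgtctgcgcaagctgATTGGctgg
The 3 lowest genes with peaks in both replicates were TET1 at chr10:68560378-68560477, SMC3 at chr10:110567737-110567836 and EED at chr11:86244798-86244897.
TET1: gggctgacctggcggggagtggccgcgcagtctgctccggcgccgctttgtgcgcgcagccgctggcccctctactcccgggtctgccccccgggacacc
SMC3: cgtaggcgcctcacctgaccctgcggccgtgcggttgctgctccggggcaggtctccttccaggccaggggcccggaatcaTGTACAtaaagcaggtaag
EED: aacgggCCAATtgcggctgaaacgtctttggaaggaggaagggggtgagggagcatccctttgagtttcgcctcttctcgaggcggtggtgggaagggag
Base composition did not follow rank in these windows. The highest window, ARID1A, had a GC content of 51.0% and 3 CpG, and the second, SMARCA4, had 84.0% and 18 CpG. At the low end TET1 had 77.0% and 11 CpG. TGTA stood in the HDAC1 and SMC3 windows, 1 at each end of the range.

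Among the H3K4 methyltransferases, which mark promoters and enhancers, all 6 genes had promoter peaks in both replicates. KMT2A, the gene broken in MLL-rearranged leukemia, had its strongest peak at chr11:118434589-118438809, with a fold of 17.0 from 276 fragments in replicate 1 and 9.89 from 97 fragments in replicate 2. Both summits lay just upstream of the gene start, 124 and 122 bp away. KMT2B, its closest relative, had folds of 13.1 and 11.9, but both summits lay past the end of its 20908 bp gene, in a peak within 3000 bp of both an internal KMT2B start and the start of IGFLR1, so it cannot be given to 1 gene. At the canonical KMT2B start the folds were 9.13 and 6.40. KMT2C and KMT2D, paralogs that place H3K4 monomethylation at enhancers, differed in number of peaks. At KMT2D 17 and 18 promoter peaks were called in replicates 1 and 2, and at KMT2C 2 in each. The joined promoter windows of KMT2D spanned 43698 bp, more than its gene of 41820 bp, so peaks along the whole gene counted as promoter peaks. At KMT2C they spanned 116201 bp of a gene of 301723 bp. KMT2C was at percentile 97.9 in replicate 1 and 63.1 in replicate 2, where its strongest promoter peak stood at an internal start 272976 bp into the gene. SETD1A and SETD1B, which supply most H3K4 trimethylation, had folds of 13.6 and 12.2 (SETD1A) and of 10.6 and 7.13 (SETD1B). The strongest SETD1B peak also lay near the start of RHOF.

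The 4 methyltransferases of H3K36 and H3K79 all had promoter peaks in both replicates. SETD2, which trimethylates H3K36 behind the polymerase, had folds of 7.38 and 5.33. Its summits lay 245 and 244 bp upstream of the start in replicates 1 and 2. NSD1 had folds of 7.20 and 6.48, both at an internal start, 133902 and 133901 bp into the gene. NSD2, which dimethylates H3K36, had the most promoter peaks of this group, 20 in replicate 1 and 21 in replicate 2. They were counted over joined promoter windows of 65111 bp, and the strongest NSD2 folds were 10.2 and 7.86. DOT1L, the H3K79 methyltransferase, had folds of 19.7 and 11.6. Its strongest replicate 1 peak was 22188 bp long and its summit lay 72520 bp from the gene start, past the gene end. That peak also lay within 3000 bp of starts of PLEKHJ1 and SF3A2. In replicate 2 the strongest summit lay 47578 bp inside the gene. At the canonical DOT1L start the folds were 12.3 and 10.7, so both replicates also had a high peak there.

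The PRC2 subunits, which write H3K27 methylation, were spread widely. SUZ12 had folds of 9.68 and 5.87, with both summits 14 bp inside the gene. EED had the lowest folds of all genes with peaks in both, 2.25 and 2.42. EZH2, the catalytic subunit, had a promoter peak in replicate 1 alone.

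All 5 histone demethylases had promoter peaks in both replicates. KDM6B, which removes H3K27 methylation, had folds of 14.7 and 14.5 from 159 and 70 fragments, nearly the same percentile in both lists (99.4 and 99.7). KDM6A (UTX), its X-linked relative and a T-ALL tumour suppressor, had folds of 9.42 and 5.0 from 39 and 13 fragments. KDM1A (LSD1) had 7.02 and 6.51. KDM5A, an H3K4 demethylase, had the largest percentile difference between replicates of all genes, 79.3 against 29.3, with folds of 5.37 and 3.63, although both summits lay within 101 bp of the gene start. KDM5B had 5.28 and 4.49, at different places in the replicates.

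Of the DNA methylation enzymes, DNMT1 stood highest. This maintenance methyltransferase had 27 and 23 promoter peaks along its many annotated starts, with strongest folds of 13.0 and 11.4. The joined promoter windows of DNMT1 spanned 68310 bp beside a gene length of 97945 bp, so many of these peaks lay inside the gene. In replicate 1 the strongest DNMT1 peak lay at the canonical start, and in replicate 2 it lay 72716 bp into the gene, with a fold of 6.25 at the canonical start. DNMT3A, the de novo methyltransferase, had only moderate folds of 4.38 and 4.73 at its promoter. The TET dioxygenases, which oxidise 5-methylcytosine, ran from moderate to none: TET3 had folds of 5.23 and 5.35, TET1 had 4.15 and 4.07, and TET2 had no promoter peak in either replicate.

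The histone acetyltransferases CREBBP and EP300 are close paralogs, and both had promoter peaks in both replicates. CREBBP, with joined promoter windows of 74377 bp, had folds of 13.7 and 7.49 with 19 and 16 promoter peaks. EP300, with windows of 56456 bp, had folds of 9.41 and 5.41 with 7 and 5. The fragments at the strongest peaks had the reverse order in replicate 1, 52 at CREBBP over a control level of 2.58 and 101 at EP300 over 9.0. Among the BET bromodomain proteins, which read acetylated histones, BRD2 had folds of 14.2 and 9.91 (4.49 at the canonical start in replicate 2) and BRD3 had 15.7 and 6.51. The replicate 1 fold of BRD2 came from 54 fragments over a control level of 2.58, at the low end of that list. BRD2 lies in the major histocompatibility region, and its strongest replicate 1 peak also reached the start of HLA-DMA. The BRD2 summit window occurs on alternate sequences of the build as well, so its values are uncertain.

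All 9 BAF and PBAF remodeller genes had promoter peaks in both replicates. ARID1A, the subunit most often mutated in cancer, ranked first of the 51 genes, with folds of 23.6 and 23.6 from 97 and 64 fragments. Both summits lay at the same base, 278 bp upstream of the gene start. The canonical ARID1A start lies further downstream, at chr1:26696015, and only the edge of this peak came within 3000 bp of it. SMARCA4 (BRG1), the ATPase, had folds of 18.6 and 14.2. Its strongest replicate 1 peak lay at the gene start, whereas that of replicate 2 lay 61053 bp inside the gene, near an internal start, and at the canonical start the replicate 2 fold was 6.68. ARID1B, the paralog of ARID1A, had 7.38 and 6.24 at an internal start, and 4.31 and 2.99 at its canonical start. ARID2, the PBAF subunit, had 6.32 and 5.0. The core subunits SMARCB1 and SMARCC1 had 8.94 and 6.95 (SMARCB1) and 8.12 and 6.38 (SMARCC1), the former uncertain because its window also lies on an alternate sequence. SMARCC2, the paralog of SMARCC1, had 8.76 and 6.35. SMARCD1 and SMARCE1 were lower, with 6.89 and 4.66 (SMARCD1) and 5.28 and 4.43 (SMARCE1).

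The CHD remodellers CHD3 and CHD4 are alternative ATPases of the NuRD complex. CHD3 had folds of 18.5 and 14.0, and CHD4 had 12.9 and 8.21. CHD3 lies on chromosome 17 close to KDM6B, and its strongest peak stood 3026 bp inside the gene in replicate 1 and also near the start of NAA38. CHD8 had folds of 9.07 and 7.68, with the strongest replicate 1 peak near SUPT16H, which starts close to the CHD8 end. At the canonical CHD8 start the folds were only 3.38 and 3.33 (percentiles 31.6 and 20.6). CHD7 had peaks in replicate 1 alone.

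The class I deacetylases HDAC1 and HDAC2 are paralogs that share the same complexes, and their promoters stood at opposite ends. HDAC1 had folds of 22.3 and 11.7 from 115 and 36 fragments, with summits 120 and 159 bp upstream of its start. HDAC2 had a fold of 2.42 from 75 fragments in replicate 1 and no promoter peak in replicate 2. The control level at the replicate 1 summit was 3.80 at HDAC1 and 28.0 at HDAC2, so the numbers of fragments differed much less than the folds. HDAC3, the NCoR deacetylase, had folds of 3.82 and 4.99 and shared its peak with RELL2. HDAC7, a class IIa enzyme prominent in thymocytes, had 7.18 and 5.93, with 3.95 at the canonical start in replicate 2.

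BAP1 removes ubiquitin from histone H2A together with ASXL1 or ASXL2. BAP1 had the highest replicate 1 fold of all 51 genes, 36.3 from 349 fragments at chr3:52409506-52411277, and a fold of 10.6 from 40 fragments in replicate 2. The peak lay between BAP1 and PHF7, which start close together. ASXL2 had 11.2 and 6.07. ASXL1, often mutated in myeloid disease, had 6.31 and 6.61, both at an internal start 76393 and 76413 bp into the gene.

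CTCF and the cohesin subunits fold chromosomes into loops. CTCF had folds of 9.05 and 9.98 from 215 and 109 fragments, the most fragments of the 51 genes in replicate 2. SMC1A had 8.30 and 9.20. SMC3, which pairs with SMC1A in the cohesin ring, had only 3.75 and 3.85, from 60 and 35 fragments. RAD21, the subunit that closes the ring, had a peak in replicate 1 alone.

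In 5 genes a promoter peak was missing from at least 1 replicate. TET2 had none in either, and the nearest peak lay 268306 bp from its canonical start in replicate 1 and 2277607 bp in replicate 2. Of other genes in the same class of promoter GC content, 45.0% had promoter peaks in both, and 68.7% did when the class was set by the GC content at the canonical start. The other 4 genes had promoter peaks in replicate 1 only. EZH2 had a fold of 5.37 from 63 fragments there, and the nearest replicate 2 peak lay 80148 bp away. RAD21 had 4.12 from 66 fragments, CHD7 had 4.92 from 18 fragments, and HDAC2 had 2.42 from 75 fragments. The replicate 2 peak nearest to the canonical HDAC2 start lay 1150288 bp away. At HDAC2, as at TET2, the lack of replicate 2 peaks thus reached far beyond the promoter. Replicate 2 had fewer fragments at its peaks, and the part of depth in these 4 genes was not tested. No peak called means only that none passed the threshold of the authors' peak caller.

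The low folds went with high control levels more than with few fragments, and the control level enters the fold by construction. Among genes with peaks in both, the 5 lowest by mean percentile were HDAC3, KDM5A, TET1, SMC3 and EED. Their strongest peaks had a median of 60 fragments over a control level of 13.7 in replicate 1, and of 28 over 8.35 in replicate 2. The 10 highest, ARID1A, SMARCA4, CHD3, KDM6B, HDAC1, DOT1L, BAP1, SETD1A, KMT2B and DNMT1, had 108 over 5.11 and 57 over 2.88. Thus the numbers of fragments differed by less than the control levels did. In replicate 1 all 46 genes had more fragments than the median peak, and in replicate 2 34 did (73.9%), against 87.0 and 76.0% of the other protein-coding genes with peaks in both. What the control level stands for is not given in the sources used here, so its part in the order of the folds was not tested.

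**Figure D3:**
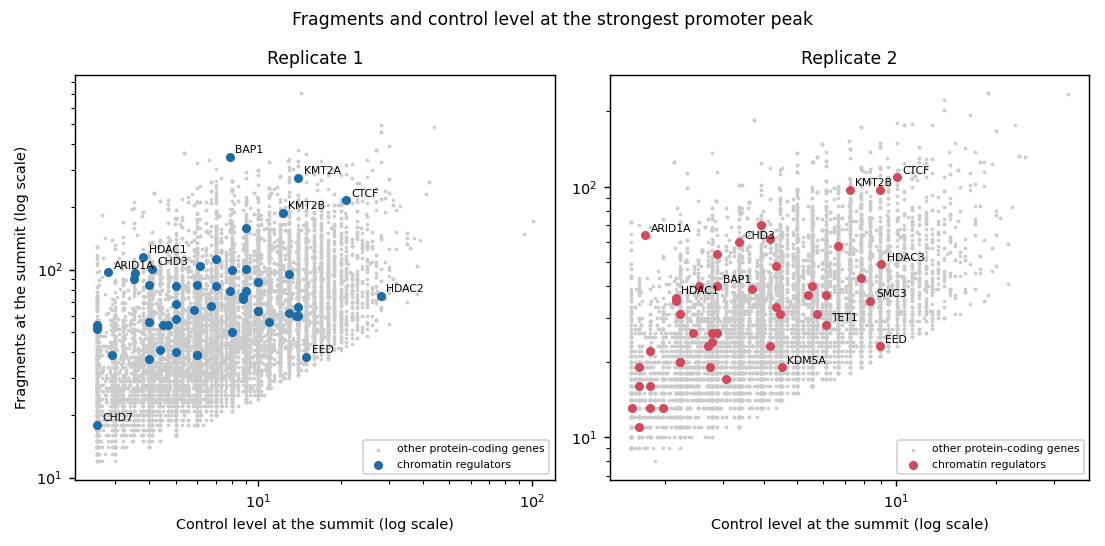
Fragments at the summit of the strongest promoter peak (y axis, log scale) against the control level there (x axis, log scale), replicate 1 left and replicate 2 right. Colored points are chromatin regulator genes and grey points other protein-coding genes. BAP1, at 349 fragments, is the highest colored point of replicate 1, while EED and HDAC2 lie to the right there, where the control level is high for the number of fragments.

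Peaks were also counted along the gene bodies. A peak outside all promoter windows with its summit in the gene was called in both replicates at 28 of 51 genes (54.9%). At KMT2B, KMT2D, CHD3, CHD4, BAP1 and BRD2 the joined promoter windows were longer than the gene and no body peak was called. The call was largely fixed there by the annotated starts, for which the comparison genes were not matched. Of all protein-coding genes 23.5% had such peaks in both, and of genes of like length and promoter GC content 38.9%. The difference from the latter was 16 points. It was 7.47 points in replicate 1 alone and 16.3 points in replicate 2 alone, an SD of 6.27 (n = 2), so its size depended on the replicate. With the 10000 peaks of highest −log10 p alone, 7 genes had body peaks in both, against 2.83% of all protein-coding genes, and the difference was 7.59 points.

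The 5 genes with the most shared body peaks were DNMT3A, SMARCA4, TET3, SETD1B and NSD2. DNMT3A had 27 body peaks in replicate 1 and 21 in replicate 2, of which 14 replicate 1 peaks touched one of replicate 2, and their folds ran from 2.48 to 6.33 and from 2.66 to 6.98. The DNMT3A body thus held many peaks although its promoter was moderate. Peaks covered 30.1 and 18.9% of this gene of 114736 bp, less than at KMT2D (68.1 and 61.2%), a gene of like GC content. SMARCA4 had 15 and 17 body peaks, 13 of them shared, with folds up to 11.6 and 15.9. TET3 had 19 and 11 with 11 shared, and SETD1B had 10 and 13 with 10 shared. NSD2 had 17 and 9 with 9 shared. All 5 are genes with a GC content of 47.0% or more over their length.

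The covered share of a gene ran closely with its GC content. Peaks covered at least 50% of the gene in both replicates at 7 genes, KMT2B, KMT2D, DOT1L, KDM6B, BRD3, SMARCA4 and BAP1, whose GC content was 52.5 to 60.1% (13.7% of the genes, against 9.47% of all protein-coding genes). DOT1L had 91.6% of its 68646 bp covered in replicate 1 and 87.0% in replicate 2. In both replicates less than 5% was covered at 20 genes, with GC contents of 35.9 to 45.2% (39.2%, against 56.5%). Among these was KMT2A, which had 2.97 and 0.85% covered in spite of its high promoter peak. Over the 51 genes, Spearman's rho between GC content and covered share was 0.937 in replicate 1 and 0.913 in replicate 2, and over all protein-coding genes it was 0.707 and 0.643. These are descriptions, since all genes share the same libraries.

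The covered share was also set beside that of comparison genes. The median chromatin regulator had 8.27% of its length covered in replicate 1 and 5.80% in replicate 2, above the medians of all protein-coding genes, 2.81 and 1.11%. For genes of like class, the class medians were averaged over the members, so a median is there set against an average. Coverage is uneven over the genes, and the direction of these differences therefore cannot be read. Genes of like length and whole-gene GC content had averages of 14.3 and 9.50%. With promoter GC content alone, the comparison genes had 9.44 and 4.66%. With gene length and promoter GC content they had 6.0 and 3.52%, and with promoter GC content and promoter window 5.36 and 2.79%.

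**Figure D4:**
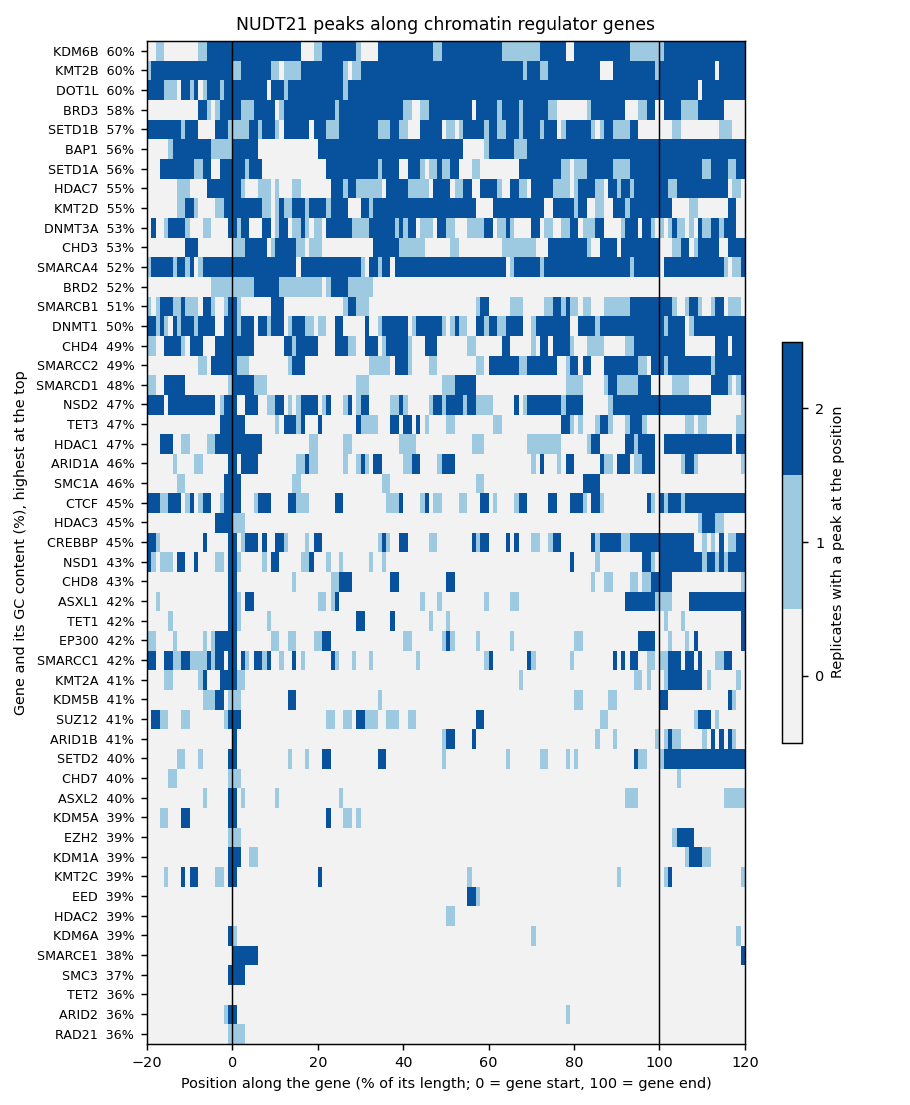
NUDT21 peaks along the 51 genes (rows, with the GC content of each gene, highest at the top). The x axis is the position in percent of gene length, from 20% before the gene start (0) to 20% past the gene end (100), in steps of 1%, and a step is dark blue where peaks of both replicates overlap it, light blue where 1 does. Rows at the top, such as KDM6B, KMT2B and DOT1L, are marked along most of their length, and rows at the bottom have marks mainly at the start or none (TET2).

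**Figure D5:**
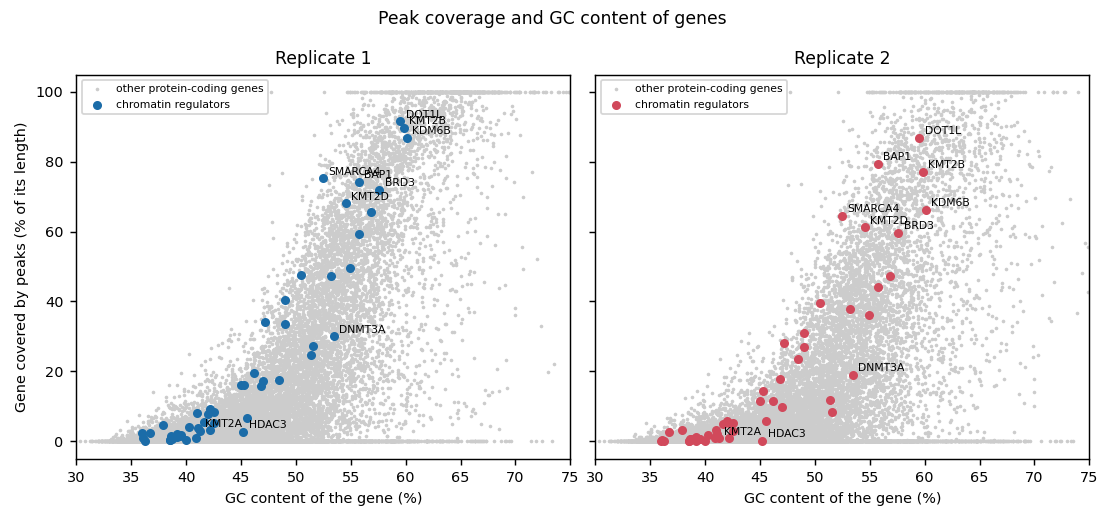
Percent of gene length covered by peaks (y axis) against the GC content of the gene (x axis), replicate 1 left and replicate 2 right. Colored points are the 51 chromatin regulator genes and grey points other protein-coding genes. The colored points rise with GC content from under 5% covered to 91.6% at DOT1L in replicate 1, with DNMT3A below others of like GC content.

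Gene ends were examined because NUDT21 acts at polyadenylation sites. A peak outside promoters whose summit fell at most 1000 bp from the 3′ end was called in both replicates at KDM5B, CREBBP and CTCF, 3 of 51 genes (5.88%). This was near the background of 3.74% of all protein-coding genes and 5.01% of those of like promoter GC content. The KDM5B peaks had folds of 4.31 and 4.23 with both summits 842 bp past the gene end. The CREBBP peaks had 7.51 and 6.78, with one summit 473 bp before the end and the other 413 bp past it. The CTCF peaks had 4.57 and 4.95, at 289 and 413 bp past the end. In replicate 1 alone DNMT3A, SMARCC1 and ASXL1 also had gene-end peaks, 6 genes in all, against 7.38% of all protein-coding genes in that replicate. With summits up to 3000 bp from the end 9 genes had them in both replicates, against 10.5%.

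The replicates were compared peak by peak at these genes. Of 336 promoter peaks of replicate 1, 248 touched a replicate 2 peak (73.8%), and of 295 of replicate 2, 271 touched one of replicate 1 (91.9%). For all protein-coding genes the shares were 65.5 and 91.8%. The strongest promoter folds of the 46 genes had a Spearman's rho of 0.824 between replicates, beside 0.804 over all 11425 genes with peaks in both. For 32 of the 46 genes (69.6%, against 71.1% of other genes with peaks in both) the strongest peaks of the replicates touched, and for the others they were different peaks of the same gene, as in KMT2C, DOT1L and SMARCA4. After KDM5A, the largest percentile differences were 34.8 points at KMT2C, 28.5 at SMARCD1 and 27.4 at KDM6A, each higher in replicate 1. HDAC3 differed the other way, at percentile 45.6 in replicate 1 and 69.5 in replicate 2.

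The position of the strongest summit was partly fixed by the choice of peaks within 3000 bp of a start, and these genes had a median of 16 starts against 5 over all protein-coding genes. Of the 46 genes, 37 (80.4%) had the replicate 1 summit within 500 bp of one of their own starts and 30 (65.2%) the replicate 2 summit, against 65.8 and 59.4% of other genes with peaks in both. The median distance was 130.5 bp and 282.5 bp. At 13 of the 46 genes the strongest replicate 1 peak lay within reach of the start of another protein-coding gene as well, among them KMT2B, DOT1L, BAP1, CHD8 and HDAC3. For these the peak cannot be assigned to 1 gene.

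Short motifs were counted on both strands within 100 bp of a replicate 1 summit. The summit was that of the strongest replicate 1 promoter peak that touched a replicate 2 peak. The 46 genes were set beside 11168 other protein-coding genes with such a shared peak. TGTA was found at 20 of 46 genes (43.5%), against 35.1%, and among them were KMT2A, DOT1L, HDAC1 and CTCF. The SP-type box GGGCGG was found at 27 (58.7%), against 46.7%, and CCAAT at 10 (21.7%), against 20.1%. GCATGCGC, the NRF1-type palindrome core, was found at 4 genes, KMT2C, SMARCC1, CHD8 and ASXL2 (8.70%, against 2.05%). ATGGCGG was found at 3 (6.52%, against 4.75%). The ETS-type CCGGAAG was found at ASXL2 alone (2.17%, against 7.74%) and the E-box CACGTG at none (against 5.35%). The windows had a median GC content of 69.2%, against 65.2%, and with 46 windows a difference of a few windows cannot be read further.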

How the data were processed

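CUT&Tag libraries of 2 biological replicates of J.gamma1 cells were sequenced. Per the labels and the study's methods, the authors processed reads with fastp, aligned them to hg38 with Bowtie2 (version 2.2.5), removed duplicates with Picard and called peaks with MACS3 (version 3.0.1) in each replicate separately. For each peak the deposited lists gave a fold over background, which is a ratio, then −log10 values of p and q, the offset of the summit and a score that was not used. Because deposited totals of reads were not used here, absolute depth is unknown. A control library and the peak caller's settings are not given in the sources used here.

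Gene models came from GENCODE release 44, and members were matched by gene name (51 of 51). Fragments and control level were solved from the authors' fold and −log10 p, with a pseudocount of 1 on both, and this was tested on simulated data. A solution existed for 100% of peaks in both lists. Replicate 1 pileups were scaled by 0.921, which arises when libraries of unequal depth are compared.

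Members and gene lists were chosen with earlier results of these data known. Values were given for the 10 genes with the highest and the 5 with the lowest mean percentile, genes lacking a peak, the 5 with most shared body peaks, genes with shared gene-end peaks and the 5 with the largest replicate difference, and the other genes were summarised by role. Genes of like GC content came from 20 classes, and genes of like length and GC content from 10 by 5 classes. Shares or medians of the comparison genes in each class were averaged over the members. With 1 group of 2 samples no test was made. Alternatives changed the promoter window, the transcript starts, the peak threshold or number, the overlap, the comparison genes and the replicates used. Scripts ran in Python 3.11.15 with numpy 2.4.6, scipy 1.17.1 and matplotlib 3.10.9.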

Additional observations from a re-analysis of the deposited data

Results flagged for a closer look

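Peaks on alternate sequences of hg38, which the comparisons did not use, held the promoter summit window of 2 genes. The BRD2 window occurred on 5 alternate sequences of chromosome 6, and a peak was called there on 5 of them in replicate 1 and on 1 in replicate 2, with folds of 3.86 to 23.7 from 9 to 91 fragments. The SMARCB1 window occurred on 1 alternate sequence of chromosome 22, with a peak on 1 in replicate 1 (fold 11.8 from 63 fragments) and on 1 in replicate 2 (fold 5.58 from 17 fragments). Copies of a sequence can share reads, so the values of both genes on the main chromosomes are uncertain.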

How the results depend on the processing

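Of 49 alternative values, 33 stayed near the reported one, 16 moved and 0 changed sign. For differences, near meant closer than the SD of the single-replicate values, which were themselves among the alternatives. For counts it meant within a fixed ratio. For shared promoter peaks the SD (12.8) was that between the shares counted from either replicate, so it does not measure replicate spread. Those that are counts of genes or shares of peaks could not change sign. The covered share, whose direction beside genes of like class cannot be read, was not among the 49. With the 10000 peaks of each list that had the highest −log10 p, promoter peaks in both were called at 28 genes, body peaks at 7, and the body difference was 7.59 points. The difference in promoter share was 27.0 points with promoters within 1000 bp, 28.8 with canonical starts, 27.2 beside genes of like GC content and length and, in an alternative chosen after seeing the data, 18.8 with GC content at the canonical start. The difference in percentile, which sets a median against an average of class medians, was 14.0 beside genes of like GC content and length. The body difference was 23.5 beside genes of like promoter GC content alone. Gene-end peaks within 3000 bp were called at 9 genes. Shared promoter peaks fell to 50.9% with a reciprocal overlap of 50% and to 42.9% for summits within 200 bp. With each replicate left out in turn, promoter peaks were called at 46 to 50 genes, the promoter difference was 17.6 to 22.6 points, the percentile difference 9.45 to 12.1 (over all genes with a peak in the replicate that stayed, not only those with peaks in both), body peaks 30 to 30, the body difference 7.47 to 16.3 and gene-end peaks 3 to 6. A further alternative chosen after seeing the data, genes of like length and whole-gene GC content, gave a body difference of 16.2 points. The cause of these shifts was not tested. No paired analysis was possible because both replicates belong to 1 group.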

Other observations

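Of the 50 further chromatin genes, KAT2B and PHF6 had no promoter peak in either replicate. A promoter peak was called in replicate 1 alone at 10 more of them. Among cohesin genes these were STAG2, WAPL and PDS5B, while STAG1, PDS5A and NIPBL had promoter peaks in both. The 38 genes of this list with peaks in both had a median mean percentile of 92.0, beside 91.8 for the 46 chromatin regulators, so the lists differed in how many genes had peaks by more than in how high the peaks ranked.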
